A study of Mus musculus with 2 samples.

Results

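The genes of glucose uptake, glycolysis, lactate handling and the response to low oxygen were followed in liver mesothelial cells, the epithelial-like sheet on the surface of the organ. A list of 36 mouse genes was looked up by gene symbol among 45037 probe sets other than controls, and 34 of the 36 had probe sets annotated to that gene alone, 71 probe sets in all. Gapdh and Eno1 were represented only by probe sets that are annotated to several loci or serve as array controls, and their values are given apart. Over the whole array 18733 genes had a probe set of their own.

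Glycolysis splits glucose into pyruvate and yields ATP without oxygen. Lactate dehydrogenase then turns pyruvate into lactate, which leaves through monocarboxylate transporters, while pyruvate dehydrogenase sends pyruvate to the mitochondria unless pyruvate dehydrogenase kinases switch it off. Most steps are run by families of isoenzymes that differ in regulation and tissue. When oxygen is low, the HIF alpha subunits escape hydroxylation by the Egln enzymes and degradation through Vhl, and HIF raises many of these genes.

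Cells of C57BL/6 mouse livers were freed with collagenase and sorted. The E12.5 array carried RNA of PCLP1-sorted cells of embryonic day 12.5, and the adult array RNA of Mesothelin-sorted cells of mice aged 8 weeks. Each group was 1 array, so that nothing could be tested across samples and no value has an SD. Developmental stage, the antibody used for sorting and the array itself cannot be told apart. RNA was amplified before labelling, and the labels do not say how many animals were pooled. Signals are linear intensities, the adult ones scaled to the median of the E12.5 array, and each difference is the log2 signal at E12.5 minus that in adult.

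All 15 mesothelial markers looked up were called present on both arrays, among them the transcription factor Wt1 (2152 at E12.5 and 2228 in adult) and the uroplakin Upk3b (10114 and 18571). Of these 15, 6 were higher in adult by 2-fold or more (Msln, Upk1b, Krt19, Muc16, Gpm6a and Lrrn4) and 1 at E12.5 (Podxl), with a median difference of -0.67 and summed signals of 41740 and 92584. The genes of the sorted proteins followed the sort: Podxl, which encodes PCLP1, had 6069 and 1807, and Msln, which encodes Mesothelin, had 48.5 and 11835. Markers of other cells were detected too. At E12.5 all 11 detected hepatocyte and hepatoblast markers were higher by 2-fold or more (summed signal 41048 against 3000 in adult), as were all 11 detected erythroid markers (4000 and 489) and all 6 proliferation markers (17248 and 860). In adult all 13 macrophage markers were at least 2-fold higher (1009 and 24958), and 4 of 9 detected endothelial markers (1788 and 14938), with Pecam1 absent on both arrays. The embryonic globin Hba-x and the heme synthesis gene Alas2 were absent on both arrays, and Clec4f, Vsig4, Cd163, Timd4 and Marco, markers of resident macrophages, were absent at E12.5. Stellate markers went both ways (6 of 10 higher at E12.5, 2 in adult; 12629 and 6538), and of the muscle markers 4 of 6 detected were higher at E12.5 (3049 and 199). The part of these cells in the results that follow was not tested, and in such bulk samples fewer cells of a type and less RNA per cell cannot be told apart.

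HIF binds the letters ACGTG or GCGTG in DNA. Promoters of members that stood at least 4-fold apart are shown first, 160 bases up to the annotated transcription start, from RefSeq (GRCm38.p6, all on the plus strand, 5′ to 3′). They were picked after the values were known, to set 4 members higher at E12.5 beside Car9, a HIF target higher in adult. Ldha has another annotated start, whose window held GCGTG but no ACGTG, and the start with more ACGTG is shown. Capitals mark ACGTG or GCGTG on either strand, so that CACGT and CACGC are the same letters read on the other strand. Slc2a1 lies at chr4:119108585-119108744, Pgk1 at chrX:106186940-106187099, Ldha at chr7:46845644-46845803, Slc16a3 at chr11:120948907-120949066 and Car9 at chr4:43506866-43507025.
Slc2a1: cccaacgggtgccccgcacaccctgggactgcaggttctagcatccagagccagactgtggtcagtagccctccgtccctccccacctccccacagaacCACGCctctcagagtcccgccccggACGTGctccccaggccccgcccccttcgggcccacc
Pgk1: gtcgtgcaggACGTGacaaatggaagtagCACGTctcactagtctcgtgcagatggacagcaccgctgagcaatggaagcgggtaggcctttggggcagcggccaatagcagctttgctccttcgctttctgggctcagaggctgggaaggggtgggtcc
Ldha: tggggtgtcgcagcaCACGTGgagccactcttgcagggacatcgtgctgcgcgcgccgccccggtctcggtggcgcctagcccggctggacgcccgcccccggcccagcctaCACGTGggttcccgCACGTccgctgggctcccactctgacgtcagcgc
Slc16a3: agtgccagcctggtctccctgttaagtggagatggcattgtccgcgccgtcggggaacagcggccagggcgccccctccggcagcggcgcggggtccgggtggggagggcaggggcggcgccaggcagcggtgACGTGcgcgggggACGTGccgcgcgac
Car9: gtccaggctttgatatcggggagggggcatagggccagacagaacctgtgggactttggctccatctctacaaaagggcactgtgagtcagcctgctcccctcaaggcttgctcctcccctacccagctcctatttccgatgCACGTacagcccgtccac

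The letters were found in the promoters of members on both sides of the comparison. In the RefSeq windows from 250 bases before to 50 after the start, ACGTG or GCGTG was found on either strand for 29 of the 34 members with a window (85.3%), and in 66.0% of 10523 detected genes with one. By window the shares were 77.1% of 48 for the members, 43.8% of all 32851 windows and 49.3% of the windows of protein-coding genes. ACGTG alone was found for 21 members (61.8%) and 28.5% of detected genes. The longer palindrome CACGTG, which other factors also bind and which holds ACGTG on both strands, was in 7 of the 48 windows (14.6%), and in 7.15% of all windows. Of 13 members higher at E12.5 with a window 11 held the letters, of 6 higher in adult 5, and of 12 with neither call 11. For ACGTG alone these counts were 9, 2 and 9. Slc2a3 and Epas1 had no window in the table. A match is no evidence of binding.

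Detection calls were positive for 33 of the 34 genes with probe sets of their own, and for 32 of them on both arrays. The muscle-type mutase Pgam2 was absent on both (92.0 and 3.99). Among the 33 detected members 14 (42.4%) were higher at E12.5 by 2-fold or more, a difference that 29.1% of all 13211 detected genes showed. In adult 7 members (21.2%) were higher by as much, beside 16.9% of all genes, and the other 12 differed by less. A 4-fold limit was passed by 9 members towards E12.5 (27.3%, beside 10.2% of all genes) and by 4 towards adult (12.1%, beside 8.39%). Among genes called present on both arrays 13 and 7 of 32 members passed 2-fold, beside 27% and 13.2% of 10487 genes. The median difference of the members was 0.38 and that of all detected genes 0.36. The members did not move as a block, and their differences ran from -3.74 to 3.15, spread over both sides of the median of all genes. How many calls fell in adult depended on the scaling, with 14 against 7 here (66.7% of calls at E12.5) and 16 against 4 (80%) on the raw signals, where Slc16a1, Pfkfb4 and Eno2 lost their calls. Among all genes 63.2% of calls fell at E12.5, and 80.2% on the raw signals.

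**Figure D1:**
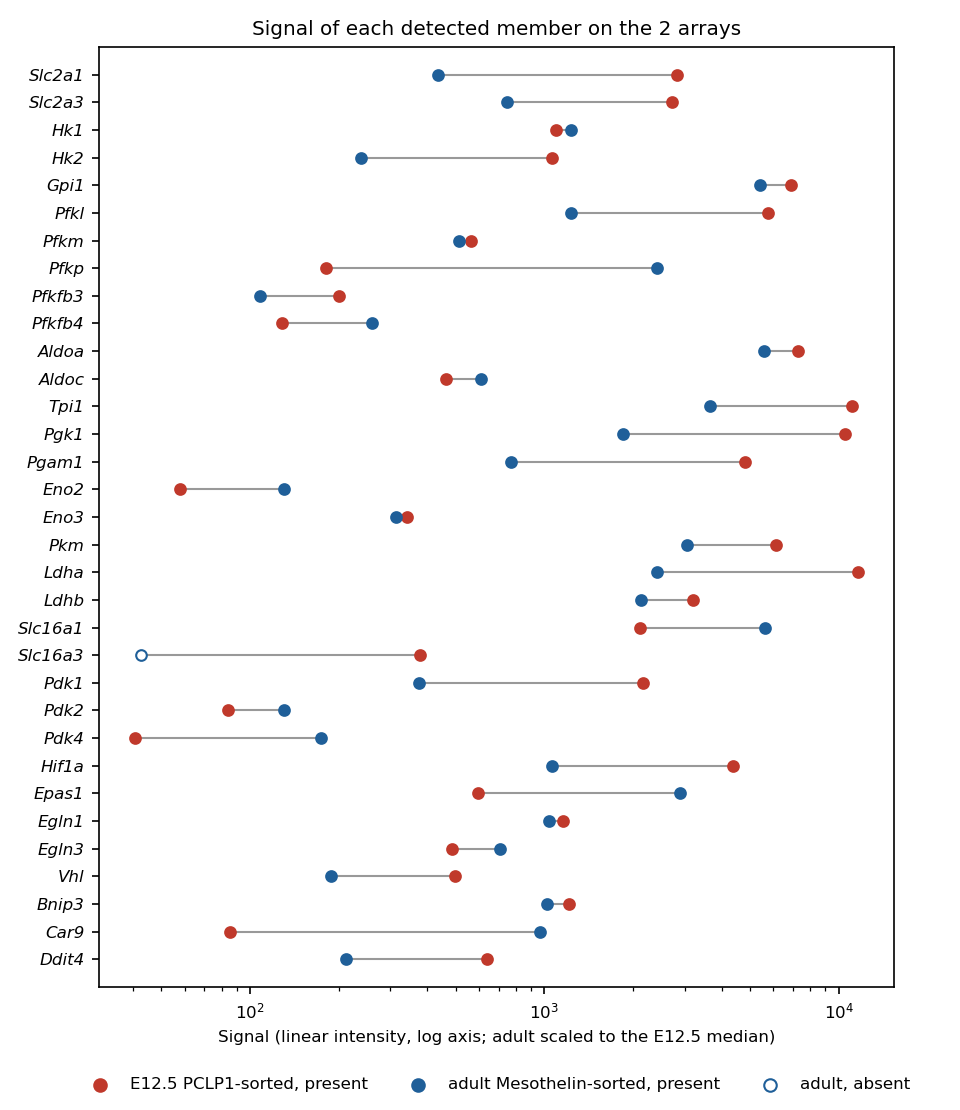
Signal of the 33 detected members on each array (log axis; adult signals scaled to the E12.5 median), in the order of the pathway, with 1 probe set per gene. Filled points were called present; the open point is Slc16a3 in adult, called absent at 42.6. Points should be compared along a row, since probe sets of different genes differ in response.

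**Figure D2:**
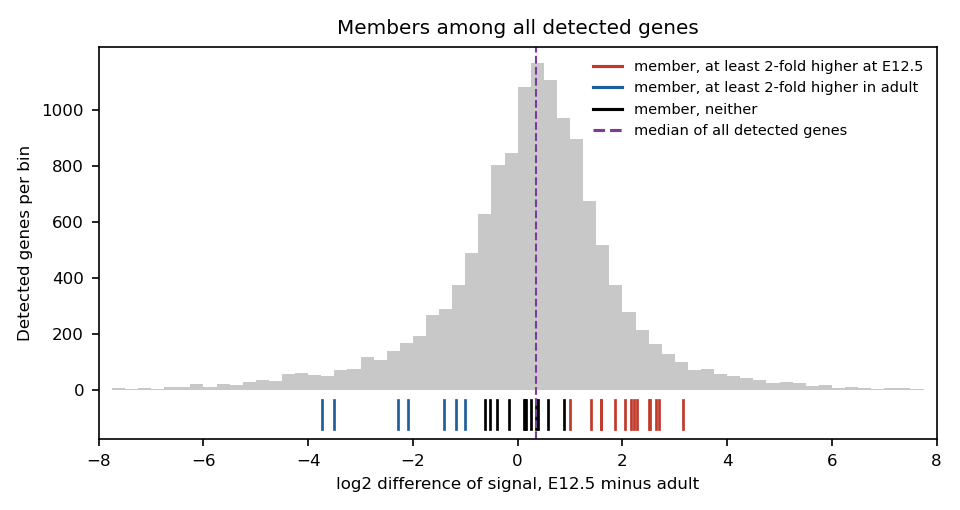
Differences of all 13211 detected genes (grey bars, bins of 0.25 on the log2 scale) and of the 33 members (ticks). The ticks spread over both flanks, with 14 at or past 2-fold towards E12.5 and 7 towards adult.

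Both glucose transporters had higher RNA signals at E12.5. Slc2a1 (Entrez gene 20525), the GLUT1 transporter of many fetal and red cells, had signals of 2832 and 436, 6.50-fold higher at E12.5. Its 3 probe sets gave nearly the same difference, 2.70 to 2.84 on the log2 scale. Slc2a3 (Entrez gene 20527), the high-affinity GLUT3 transporter, had 2710 and 748 (3.63-fold), and 1.86 and 2.23 in its detected probe sets. The same array had the higher signals of all detected erythroid markers, whose part in these values was not tested. Of the other transporters looked up, the liver-type Slc2a2 was dim (70.5 and 62.0), and Slc2a8 was present in adult alone (at least 2.71-fold).

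Of the hexokinases, which trap glucose as its phosphate, the inducible Hk2 (Entrez gene 15277) had 1065 and 239, 4.46-fold higher at E12.5. The ubiquitous Hk1 (Entrez gene 15275) had 1094 and 1234. Hk2 thus differed between the arrays and Hk1 lay within 2-fold, although the dimmer probe set of Hk1 had a difference of -1.05. Hk3, a hexokinase of myeloid cells, was present in adult alone (9.03, called absent, and 410), on the array where all macrophage markers were higher. The ratio of 45.4-fold rests on that absent signal. Hkdc1 was absent on both arrays. Gpi1, the isomerase after hexokinase, lay within 2-fold (6914 and 5421).

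The phosphofructokinases, which commit sugar to glycolysis, held a subunit on each side of the comparison. The liver-type subunit Pfkl (Entrez gene 18641) had 5739 at E12.5 and 1233 in adult (4.66-fold), and the platelet-type subunit Pfkp (Entrez gene 56421) had 181 and 2421, 13.4-fold higher in adult. The muscle-type subunit Pfkm (Entrez gene 18642) was nearly level, at 563 and 514. The differences of Pfkl and Pfkp were 5.96 apart on the log2 scale, and 5.94 after quantile normalization. Of all detected genes 3.03% lay at least as far towards adult as Pfkp. The second detected probe set of Pfkp pointed the same way (-2.64). For Pfkl the bright probe sets gave 2.22 and 1.78, and a further one, dim on both arrays (100.1 and 137), gave -0.45. That dim one is the only probe set of Pfkl left when those that may match several transcripts or genes are set aside, and both subunits then lie on the adult side, with Pfkl within 2-fold.

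The bifunctional PFKFB enzymes make and remove fructose 2,6-bisphosphate, the activator of phosphofructokinase. Pfkfb3, whose kinase activity dominates, had 201 and 108, within 2-fold. Pfkfb4 had 128 and 259, just over 2-fold higher in adult (2.02-fold). In the related list, Pfkfb1, the liver form, was 4.06-fold higher at E12.5 (234 and 57.8), where hepatoblast markers were higher as well.

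Aldolase and triose phosphate isomerase stand where the six-carbon chain is cut. Aldoa, the main aldolase outside liver, had 7251 and 5560, and the brain-type Aldoc 462 and 608, both within 2-fold. The 5 probe sets of Aldoa spread from -1.48 to 0.96 and differed in direction. Tpi1 (Entrez gene 21991), which interconverts the triose phosphates, had 11081 at E12.5 and 3666 in adult (3.02-fold), with 3 probe sets between 1.60 and 1.79.

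Of 5 detected genes of the payoff steps, which return ATP, 3 passed 2-fold towards E12.5, beside 29.1% of all detected genes. Pgk1 (Entrez gene 18655), the first kinase to make ATP, had 10497 and 1855 (5.66-fold), and its probe sets gave differences of 2.38 to 4.47. Pgam1 (Entrez gene 18648), the mutase found in most tissues, had 4813 and 773 (6.23-fold). Pkm, the pyruvate kinase, had 6125 and 3054, at the edge of the 2-fold limit (2.01-fold), and the probe set does not separate its splice forms. Pkm fell inside 2-fold when detected genes were centred, after quantile normalization and with a pseudocount of 32. The enolases differed, with the neuronal Eno2 at 57.6 and 130 (2.26-fold higher in adult) and the muscle-type Eno3 at 342 and 313. The red cell and liver kinase Pklr was 3.76-fold higher at E12.5 (148 and 39.3).

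Gapdh and Eno1 could be read from shared or control probe sets only, and are not in the counts. The 3 bright probe sets annotated to Eno1 together with other loci were 4.31, 2.98 and 3.77-fold higher at E12.5, at signals of 12126.8 to 12592. The bright probe set shared by Gapdh and its pseudogenes had 11693 and 8172. A dimmer shared probe set of Gapdh, present at E12.5 alone, had 364 and 80.3. For Eno1 a dim shared probe set, also present at E12.5 alone, had 29.6 and 44.5, the larger signal in adult. The control probe sets of Gapdh depended on their place in the transcript: the difference was 1.06 at the 3′ end, 2.14 in the middle and 2.78 at the 5′ end. For beta-actin these were -0.32, 0.08 and 0.53. The 3′ to 5′ ratio of Gapdh was 2.07 at E12.5 and 6.81 in adult, so that the 5′ probe set was lower relative to the 3′ one on the adult array. Where along their transcripts the members' probe sets lie was not analysed here, and the part of this gap in their differences was not tested.

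**Figure D3:**
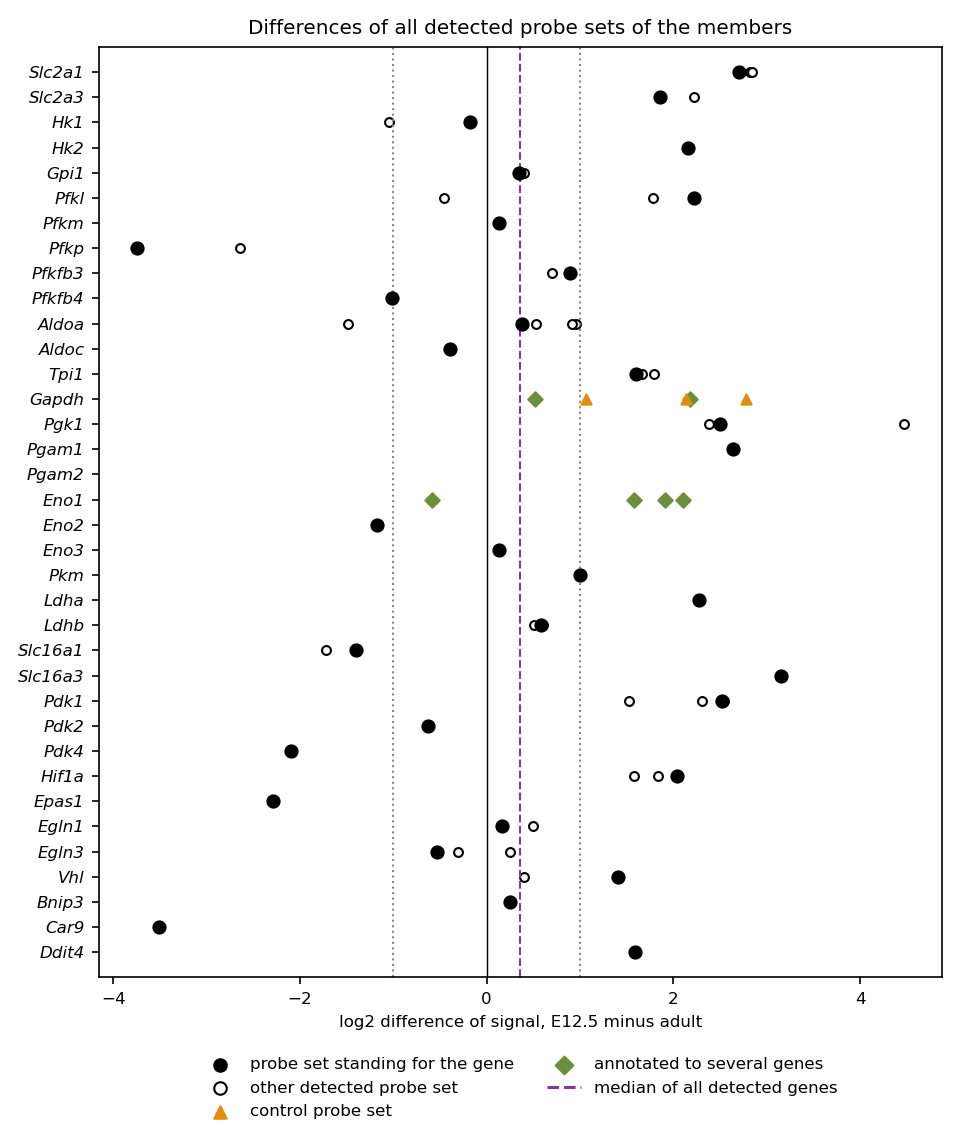
Differences (log2, E12.5 minus adult) of every detected probe set of the members, with the probe set that stands for the gene filled, dotted lines at 2-fold, and control and shared probe sets for Gapdh and Eno1. The Slc2a1, Tpi1 and Ldhb probe sets lie close together, those of Aldoa, Pfkl and Egln3 lie on both sides of 0.

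Probe sets of the same member agreed in direction in most cases. Of 17 members with several detected probe sets, 3 had both directions (Pfkl, Aldoa and Egln3), and in 6 all detected probe sets passed 2-fold towards E12.5. The matching shares over all genes were not computed, so whether members differ from other genes in this cannot be told. The SD of probe sets of the same gene was 0.70 on the log2 scale over 14 members and 0.62 over 4450 genes of the table. This measures the disagreement of probe sets on the same arrays, not the error between arrays.

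The genes of lactate formation and export differed by isoform. Ldha (Entrez gene 16828), the subunit that favours lactate formation, had 11627 at E12.5 and 2409 in adult (4.83-fold). Ldhb (Entrez gene 16832), the heart-type subunit, had 3189 and 2132, within 2-fold, with 4 probe sets between 0.51 and 0.61. Slc16a3 (Entrez gene 80879), the MCT4 exporter of glycolytic cells, was present at E12.5 alone, with 379 against 42.6, at least 8.90-fold. Slc16a1 (Entrez gene 20501), the widespread MCT1 transporter that carries lactate both ways, had 2118 and 5606, 2.65-fold higher in adult. Bsg, the chaperone that brings both transporters to the membrane, was 2.22-fold higher in adult (1678 and 3726). The transporters thus lay on opposite sides, with differences of -1.40 for Slc16a1 and at least 3.15 for Slc16a3.

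The pyruvate dehydrogenase kinases, which hold pyruvate back from the mitochondria, likewise lay on opposite sides. Pdk1 (Entrez gene 228026), a HIF target, had 2158 and 376 (5.73-fold higher at E12.5), and its 4 probe sets lay between 1.52 and 2.54. Pdk4 (Entrez gene 27273), the kinase induced by fasting and fatty acids, had 40.7 and 174 (4.26-fold higher in adult). Pdk2 had 84.1 and 130, within 2-fold. In the list of pyruvate entry genes Pdk3 was higher at E12.5 by 4.76-fold (818 and 172), the phosphatase Pdp2 that reverses these kinases by 2.71-fold and the carboxylase Pcx by 2.57-fold. Among pyruvate dehydrogenase subunits, Pdhb was 2.10-fold and Dlat 2.33-fold higher at E12.5. Within 2-fold lay Dld (425 and 239), Pdhx (128 and 81.4) and Pdha1 (1579 and 2363), of which Pdha1 had the larger signal in adult.

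The HIF alpha subunits differed in opposite directions. Hif1a (Entrez gene 15251), the widespread oxygen-regulated subunit, had 4374 at E12.5 and 1061 in adult (4.12-fold), with detected probe sets between 1.58 and 2.04. Epas1 (Entrez gene 13819), which encodes HIF-2 alpha and is abundant in endothelium, had 593 and 2898 (4.88-fold higher in adult). The differences were 4.33 apart and 4.32 after quantile normalization. Endothelial markers were higher in adult for Kdr (400 and 3857), Stab1, Stab2 and Clec4g, and within 2-fold for Cdh5 (128 and 109), Tek, Tie1, Emcn and Lyve1. Since the HIF subunits are controlled mainly through protein stability, these RNA values do not measure HIF activity.

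The Egln hydroxylases lay within 2-fold and Vhl did not. Egln1, the main HIF prolyl hydroxylase, had 1158 and 1034. Egln3, itself a HIF target, had 487 and 706, with probe sets in both directions. Vhl (Entrez gene 22346), the ubiquitin ligase subunit that marks hydroxylated HIF, had 499 and 188 (2.65-fold higher at E12.5), while its second detected probe set gave 0.40, and the mean over both left Vhl within 2-fold. In the related list Hif3a, a HIF alpha relative, was present at E12.5 alone (1045 and 24.3, called absent). The ratio of 43.0-fold rests on that absent signal. Arnt2, a dimer partner, was 8.99-fold and the asparaginyl hydroxylase Hif1an 2.85-fold higher at E12.5. The common partner Arnt lay within 2-fold (400 and 327), and Os9 was higher in adult (2.61-fold).

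The remaining hypoxia targets each took a different course. Car9 (Entrez gene 230099), a membrane carbonic anhydrase and a classic HIF target, had 85.3 and 969, 11.4-fold higher in adult, and 3.35% of detected genes lay at least as far that way. Ddit4 (Entrez gene 74747), a stress-induced inhibitor of mTORC1, had 639 and 212 (3.01-fold higher at E12.5). Bnip3, a mitophagy receptor, was nearly level at 1212 and 1021. The sister enzyme Car12 was present at E12.5 alone (88.4 against 20.1, called absent), opposite to Car9.

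**Figure D4:**
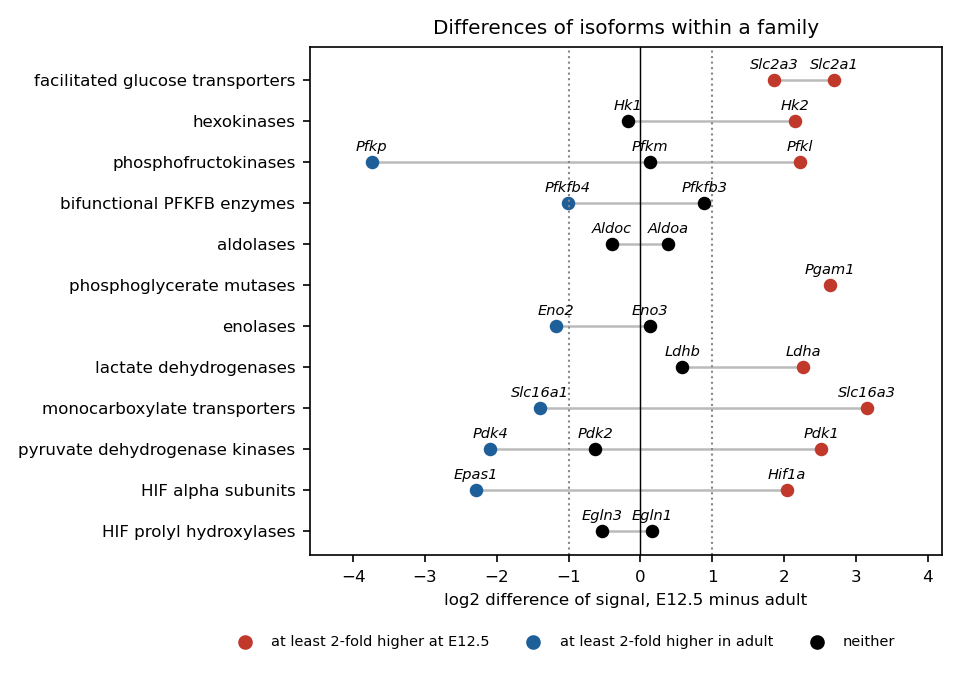
Differences (log2, E12.5 minus adult) of the detected isoforms of each family, 1 point per gene, coloured by the 2-fold call. The phosphofructokinase, monocarboxylate transporter, pyruvate dehydrogenase kinase and HIF alpha rows each hold a gene higher at E12.5 and one higher in adult.

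Across families, isoforms were compared through their differences and not through their levels, since probe sets of different genes are not on a common scale. Among 15 pairs of detected isoforms in 11 families, 12 pairs stood at least 2-fold apart in their differences and 4 had calls in opposite directions. These 4 were Pfkl and Pfkp, Slc16a1 and Slc16a3 (-4.56, at the bound for Slc16a3), Pdk1 and Pdk4 (4.61), and Hif1a and Epas1. Of all detected genes 29.1% were called towards E12.5 and 16.9% towards adult, and matching counts for pairs of unrelated genes were not computed. Several pairs of phosphofructokinases and of pyruvate dehydrogenase kinases share a gene, so that the pairs are not independent. A common scaling factor cancels in such a pair, although a call of either gene does not stand free of it: Slc16a1 lay within 2-fold on the raw signals. With all detected probe sets averaged, the gap of Pfkl and Pfkp was 4.37 in place of 5.96, smaller in size than that of Slc16a1 and Slc16a3 (-4.72).

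Related genes outside the members were looked up in 8 lists. Of their 96 genes 82 were detected, with a median difference of 0.70, and 31 (37.8%) passed 2-fold towards E12.5 while 10 (12.2%) did so towards adult. Over all detected genes these shares were 29.1% and 16.9%, and the median was 0.36. Of 7 pentose phosphate genes 4 were higher at E12.5 and none in adult, led by the lactonase Pgls (1342 and 442, 3.04-fold), transketolase Tkt (11851 and 5341, 2.22-fold) and Pgd (2.11-fold). Of 12 pyruvate entry genes 5 were higher at E12.5 and none in adult. Of 10 glycogen genes 4 passed 2-fold towards E12.5 and 1 towards adult. These included the liver synthase Gys2 (at least 13.3-fold, at a signal of 77.7), the muscle synthase Gys1 (at least 7.54-fold, 531 and 70.5), and the muscle phosphorylase Pygm in adult (at least 4.34-fold).

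Of 22 other HIF targets detected, 10 (45.5%) passed 2-fold towards E12.5 and 3 (13.6%) towards adult, with a median of 0.85. Over all detected genes the shares were 29.1% and 16.9% and the median 0.36, and these also stand beside the small lists below. The transferrin receptor Tfrc, which dividing and erythroid cells carry, had 1570 and 151 (10.4-fold higher at E12.5). The growth factor Vegfa was present at E12.5 alone (660 and 111, at least 5.94-fold). Ndrg1 had 1109 and 7703, 6.94-fold higher in adult, and Adm and Angptl4 were also higher there. Among 11 other oxygen sensing genes 5 passed it towards E12.5 and 1 towards adult. Among 13 other transport and glycolysis genes the counts were 2 and 3, led by Hk3, Pfkfb1 and Pklr. Of 4 gluconeogenesis genes Fbp1 alone passed 2-fold, in adult and at a low signal (51.3, at least 2.14-fold), while Pck2 (644 and 397) and G6pc3 (266 and 182) were the next furthest apart, with the larger signal at E12.5. Of 3 lactate and pH genes Car12 and Bsg passed it in opposite directions.

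**Figure D5:**
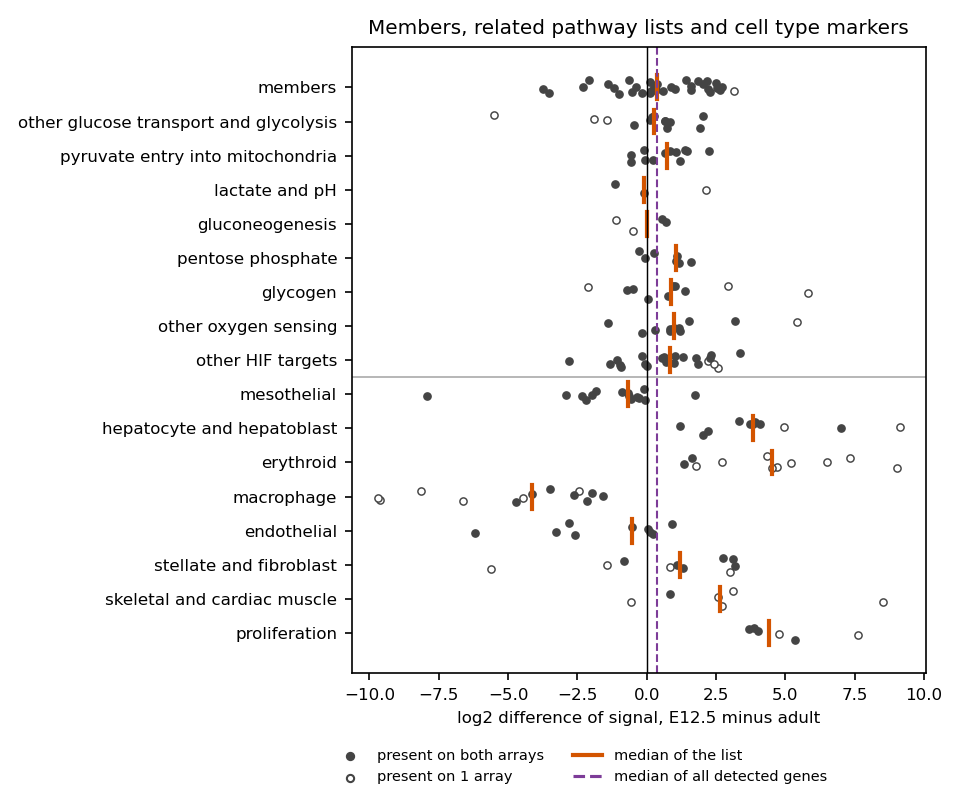
Differences (log2, E12.5 minus adult) of the detected members, 8 related pathway lists and 8 lists of cell type and proliferation markers, with open points for genes present on 1 array. The members and pathway lists lie on both sides of 0, while the hepatocyte, erythroid and proliferation lists lie towards E12.5 and the macrophage list towards adult.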

How the data were processed

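Per the labels' protocols, total RNA of the sorted cells was amplified and hybridised to Affymetrix arrays. The authors deposited a raw probe set signal, a linear intensity, and a detection call per array. Per the submitters' processing notes the software was Affymetrix Expression Console, and the method of probe summary is not given in the sources used here. A second column the authors deposited holds a ratio of adult to E12.5. Recomputed from the raw intensities with the ratio of the array medians (0.680) as a constant, it matched above its floor of 0.01. At that floor, where 78 probe sets stood, the match was not assessed. The adult signals were therefore divided by that constant. The value table held the raw signals again.

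Probe sets were named from the platform annotation (34945) or, where it listed none, from the single current symbol in the deposited table (1391); 932 with several symbols were not named. A gene was represented by its brightest probe set, by mean log2 signal, called present on at least 1 array. Called means at least 2-fold. For genes present on 1 array, an "at least" fold is a bound, the bright signal divided by the dim one. The lowest present signal of the dim array was the divisor if that was larger (4.57 at E12.5, 5.84 in adult). Absent calls also occurred at higher signals, such as 92.0 for Pgam2 at E12.5, so these bounds are not guaranteed minimums. With 1 array per group no test was run. Counting was tested on simulated data. All members are named; from each related list, the detected genes with the largest differences are named, with others chosen after their values were seen. The members and lists were chosen with earlier results of these data known. Python 3.11.15 with pandas 2.3.3 was used.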

Additional observations from a re-analysis of the deposited data

How the results depend on the processing

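No paired analysis was possible because each group had 1 array, and no array could be left out. The count of members higher at E12.5, 14 as reported, was 13 to 16 under the other settings run, but 9 of 23 when probe sets that may match several transcripts or genes were set aside, where Pfkl turned to -0.45, and 9 at 4-fold; fewer genes or a higher limit make these counts smaller by construction. Of 7 higher in adult, 4 were left on raw signals and 4 at 4-fold, and 5 with a pseudocount of 32. The median of 0.38 was 0.22 after quantile normalization, 0.94 on raw signals, 0.027 with detected genes centred, 0.16 with those probe sets set aside, and 0.52 with Gapdh and Eno1 added, an alternative chosen after seeing the data, as was naming by the platform annotation alone. These scalings moved the median of all genes by -0.23, 0.56 and -0.36, and the median of the members stood 0.10, 0.03 and 0.03 above it. With the probe sets named above set aside, all genes had a median of 0.36, and the member median minus it was -0.19. Among genes present on both arrays that difference was -0.008. Of 246 values of the 21 called members under the alternatives run, 1 changed sign. Several alternatives used the same signals for these members and returned the same values, so this count does not measure robustness. With probe sets that may match several transcripts or genes set aside, the called members Slc2a3, Tpi1, Pgam1, Ldha and Eno2 had no value left. The same held for Hk1, Gpi1, Aldoa, Aldoc and Ldhb, which had no call. The number of arrays limits precision, and the E12.5 signals of Eno2 (57.6) and Pdk4 (40.7) lie near the median of that array.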
